A study of Mus musculus with 7 samples.

Results

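Amino acid transporter genes were compared between the livers of TgLC and TgL mice. They were taken as every gene of the deposited table whose symbol belongs to one of 7 solute carrier families, Slc1, Slc3, Slc6, Slc7, Slc36, Slc38 and Slc43. The rule uses symbols only and no measured value. It gave 49 of the 23594 genes in the table. Of these 49, 31 had a mean of 10 or more normalized counts over the 7 mice, the level at which a gene was tested, and 18 did not. One of the 31, Slc7a6os, shares the symbol of its neighbour Slc7a6 but is not a carrier, so 30 transporter genes were tested.

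Bulk RNA was sequenced from the livers of 4 TgLC and 3 TgL mice. TgL mice have the mouse Lif gene, which encodes the cytokine leukemia inhibitory factor, knocked into the Rosa26 locus behind a CAG promoter and a STOP cassette. TgLC mice carry in addition R26-CreERT2, a recombinase that acts only in the presence of tamoxifen (TAM) and removes the STOP cassette. All 7 mice received TAM in 1 intraperitoneal injection, at 32 µg per g of body weight for females and 64 µg per g for males. The study describes injection of TgLC mice at the age of 8 weeks, with TgL mice matched for age. The age and sex of each mouse and the day of collection for these libraries are not stated. R26-CreERT2 is not restricted to the liver, so the transgene can be switched on in other tissues too. CreERT2 was present in TgLC mice alone, and its part cannot be told apart from that of LIF. A pair-fed group was not analysed here. Mice are numbered by their order in the record. TgLC mice 1 and 2 and TgL mice 1 and 2 have titles in 1 number series, while TgLC mice 3 and 4 and TgL mouse 3 do not.

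Reads counted over the genes of the table summed to 11325974 to 12448961 in TgLC and 9367681 to 11030699 in TgL mice. Lif itself had 10, 12, 10 and 25 reads in the TgLC livers, against 1, 2 and 0 reads in the TgL livers, and every TgLC mouse was above every TgL mouse. Hepatocyte markers such as Alb and Ttr were abundant in both groups, summing to 992112 to 1077570 normalized counts in TgLC and 1167890 to 1224310 in TgL livers for 7 genes. Every TgLC sum was thus below every TgL sum. By limma (adjusted p under 0.05) 2 of the 7 rose and 2 fell, beside 16.2% and 15.0% of all genes tested. In bulk tissue, fewer cells of a type and less RNA per cell cannot be told apart.

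Amino acid carriers move their substrates across the plasma membrane, and some across the lysosomal membrane. In the liver they supply protein synthesis, the urea cycle, gluconeogenesis and the formation of glutathione and taurine conjugates. Some Slc7 proteins work only when joined by a disulfide bond to a heavy chain of the Slc3 family, which brings them to the cell surface. Others, such as those of the Slc38 family, are single proteins that carry glutamine and other small neutral amino acids together with sodium.

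Of the 31 genes tested, 11 rose and 5 fell in TgLC livers by limma (adjusted p under 0.05), and 15 did not pass. Among all 13145 genes tested, 16.2% rose and 15.0% fell by the same rule. With a change of at least 2-fold as well, 8 members rose and 3 fell, beside 7.53% and 6.65% of all genes. The groups did not overlap for 16 members, with TgLC above for 11 and below for 5, and these were the 16 that passed. Such separation was found upward for 21.1% and downward for 19.9% of all genes. The median log2 fold change of the members was 0.29, and that of all genes tested was 0.00184. EdgeR with library totals in place of the size factors put the median of all genes at -0.30 and the members at 9 higher and 8 lower, beside 8.95% and 32.5% of all genes. Fold changes here are differences of log2(normalized count + 1), and they understate the change of genes with few reads.

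**Figure D1:**
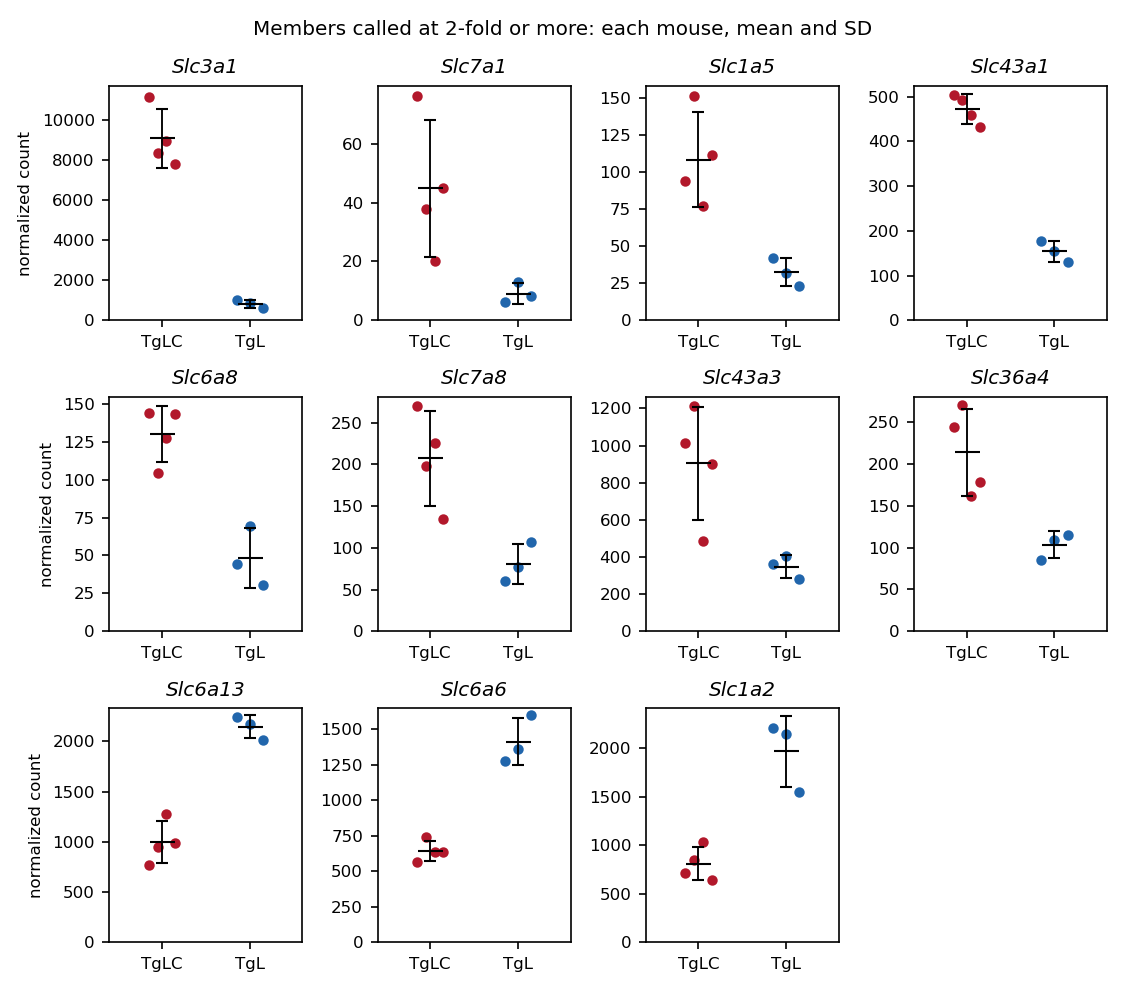
Normalized counts (vertical axis, linear, from 0) of the 11 members that passed at 2-fold or more, with TgLC mice on the left and TgL mice on the right of each panel; points are mice, and the black bars are the mean and SD (n = 4 and 3). In each of the 11 panels the groups do not overlap; Slc3a1 shows the widest gap, with a TgLC mean of 9089 and a TgL mean of 834.

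The 2 heavy chains of the Slc3 family both rose, but by very different amounts. Slc3a1 encodes rBAT, which in kidney and gut joins the light chain encoded by Slc7a9 to take up cystine and basic amino acids. It had 11177, 8382, 8965 and 7833 normalized counts in TgLC livers, against 1008, 882 and 613 in TgL livers. The lowest TgLC mouse was thus far above the highest TgL mouse. The means were 9089 ± 1466 (SD, n = 4) in TgLC and 834 ± 202 (SD, n = 3) in TgL livers, a 10.9-fold difference and a log2 fold change of 3.46 (standard error, SE, 0.19; limma adjusted p = 6.01e-06). It was the largest change of any member tested and passed under each of 14 alternative settings of the analysis. Slc7a9, the usual partner, had 0, 0, 1 and 0 reads in the same TgLC livers and 1, 0 and 0 reads in the TgL livers. At most 1 read of that light chain was therefore counted in any liver, TgLC or TgL.

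The stretch of the Slc3a1 promoter around its RefSeq start is printed because this gene changed most. It holds 300 bases spanning the start, on the plus strand at chr17:85028097-85028396 of GRCm38.p6, with the single match to CAAAGTCCA, a form of the site of the hepatocyte factor HNF4, in capitals.
Slc3a1: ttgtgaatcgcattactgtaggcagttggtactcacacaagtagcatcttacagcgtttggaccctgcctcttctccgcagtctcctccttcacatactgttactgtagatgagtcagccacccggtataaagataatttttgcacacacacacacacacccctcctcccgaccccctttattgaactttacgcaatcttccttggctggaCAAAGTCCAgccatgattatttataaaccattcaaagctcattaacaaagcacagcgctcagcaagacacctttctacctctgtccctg
The match begins at position -39 from the start, and 0.475% of 32851 mouse promoters of the same length hold these letters on either strand. Neither TTCNNNGAA, a form of the STAT site, nor TGATGNAA, the core of the element bound by ATF4 with C/EBP factors, was found in this window. The 3 motifs were chosen after the expression values had been seen, and a match is a description of letters and not of binding.

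Slc3a2 encodes the CD98 heavy chain, the partner of most other Slc7 light chains. It had 632, 580.4, 695 and 593 normalized counts in TgLC livers, against 439.96, 441 and 514 in TgL livers. The groups lay close but did not overlap, and the log2 fold change was 0.43 (SE 0.12, limma adjusted p = 0.0231). Leaving out TgL mouse 1 or TgL mouse 2 ended the call, at adjusted p values of 0.0984 and 0.0925 from limma, and edgeR with library totals gave 0.11 (adjusted p = 0.456).

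The light chains tested that pair with the CD98 heavy chain are Slc7a5, Slc7a6, Slc7a7 and Slc7a8, and their summed level was 289 to 462 normalized counts in TgLC and 151 to 195 in TgL livers. Slc7a8 encodes LAT2, an exchanger of neutral amino acids. It had 270.01, 199, 226 and 134 normalized counts in TgLC livers, against 59.9, 76.6 and 107 in TgL livers. All TgLC mice were higher, with a log2 fold change of 1.34 (SE 0.27, limma adjusted p = 0.00533). Slc7a7 encodes y+LAT1, which exports basic amino acids in exchange for neutral ones. It had 105, 75.7, 69.8 and 101 normalized counts in TgLC livers, against 43.8, 50.8 and 53.0 in TgL livers, a log2 fold change of 0.81 (SE 0.20, limma adjusted p = 0.0139). That call was lost without TgL mouse 1 (limma adjusted p = 0.0646) and with edgeR under library totals, where the log2 fold change was 0.52 (adjusted p = 0.0772).

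Slc7a5 encodes LAT1, the exchanger of leucine and other large neutral amino acids. It had 58.0, 64.5, 43.5 and 34.1 normalized counts in TgLC livers, against 39.3, 39.8 and 30.6 in TgL livers. The groups overlapped, and the 95% interval of its log2 fold change of 0.41 ran from -0.17 to 0.99 (limma adjusted p = 0.256). Slc7a6, the gene of y+LAT2, had 29.0, 23.5, 10.1 and 19.0 normalized counts in TgLC livers, against 8.05, 10.9 and 4.08 in TgL livers. Only TgLC mouse 3 reached into the range of TgL mice, and the log2 fold change of 1.30 did not pass (limma adjusted p = 0.0579) unless that mouse was left out, when it was 1.58 (limma adjusted p = 0.0214). Slc7a11, the cystine and glutamate exchanger of this group, and Slc7a10 were not analysed here.

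The Slc7a1 and Slc7a2 proteins carry basic amino acids and need no heavy chain. Slc7a1 encodes CAT1, the carrier of arginine and lysine in most tissues, which adult liver cells hold at a low level. It had 76.0, 37.9, 20.2 and 45.1 normalized counts in TgLC livers, against 6.26, 12.9 and 8.16 in TgL livers. Every TgLC mouse was higher, though the TgLC mice differed widely among themselves. The log2 fold change was 2.09 (SE 0.44, limma adjusted p = 0.00711). Its TgL mean of 9.12 was under the minimum of 10, so it was tested only through its level in TgLC livers, as was Slc7a6 with a TgL mean of 7.69.

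Slc7a2 encodes CAT2, whose liver form takes up arginine when it is plentiful. It had 7795, 5128, 3023 and 4316 normalized counts in TgLC livers, against 8399, 8706 and 5776 in TgL livers. TgLC mouse 1 lay within the TgL range and the other 3 TgLC mice lay below it. The log2 fold change of -0.65 did not pass (limma adjusted p = 0.125), and its 95% interval was -1.31 to 0.01. Without TgLC mouse 1 it passed at -0.89 (limma adjusted p = 0.0223), and it also passed with edgeR under library totals at -0.89 (adjusted p = 0.0406). The ratio of Slc7a2 to Slc7a1 within a mouse, which depends on the length of each gene, was 95.7 to 149 in TgLC and 673 to 1342 in TgL livers. In the TgL mice this ratio is imprecise, since it rests on 7, 13 and 8 reads of Slc7a1. Slc7a4, a related gene of uncertain transport function, did not pass at 0.55 (limma adjusted p = 0.260).

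The Slc7a1 gene, with the next largest fold change, has 2 promoter windows in RefSeq. The one printed was picked for its match to TTCNNNGAA, which the other lacks, and binding was not tested. The printed window lies on the minus strand at chr5:148392766-148393065 of GRCm38.p6 and is written in the sense of the gene, with the match in capitals.
Slc7a1: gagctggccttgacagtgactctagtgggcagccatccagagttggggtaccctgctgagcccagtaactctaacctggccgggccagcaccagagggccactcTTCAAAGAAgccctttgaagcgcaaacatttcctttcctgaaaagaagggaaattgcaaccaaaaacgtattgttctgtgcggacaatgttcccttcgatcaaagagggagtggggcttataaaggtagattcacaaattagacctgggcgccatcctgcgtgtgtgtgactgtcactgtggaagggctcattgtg
The match begins at position -146. These letters occurred in 8.30% of all 32851 promoters and in 3 of the 57 windows found for 37 members, those of Slc7a1, Slc38a9 and Slc1a3. TGATGNAA occurred in 3.97% of all promoters and in 4 member windows, of the genes Slc1a4, Slc7a7 and Slc6a21. Of these 6 genes Slc7a1 and Slc7a7 rose, Slc1a4 and Slc38a9 did not pass, and Slc1a3 and Slc6a21 had too few reads to test.

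The sodium-coupled carriers of the Slc38 family took up the most reads of any family in each mouse. Of 8 tested, Slc38a3 fell, Slc38a10 rose, 6 did not pass, and none reached 2-fold. Slc38a3 encodes SNAT3, the system N carrier that moves glutamine, asparagine and histidine across the hepatocyte membrane in either direction. It had 12459, 12346, 13059 and 11027 normalized counts in TgLC livers, against 20582, 21365 and 18595 in TgL livers. All 4 TgLC mice were lower by a similar amount, with a log2 fold change of -0.72 (SE 0.13, limma adjusted p = 0.00338). Slc38a10, a family member of the cell interior that carries glutamine and alanine, had 1234, 1409.6, 1716 and 1813 normalized counts in TgLC livers, against 936, 990.4 and 840.2 in TgL livers. Its log2 fold change was 0.73 (SE 0.15, limma adjusted p = 0.00668).

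Slc38a4 and Slc38a2 encode the hepatic carriers of alanine and other small neutral amino acids, the second of which is known to be induced when amino acids are scarce. Slc38a4 had 11923, 8850.4, 9807 and 9863 normalized counts in TgLC livers, against 12573, 12865 and 9625 in TgL livers. Slc38a2 had 4590.2, 2624, 3158 and 2373 normalized counts in TgLC livers, against 1776, 2449 and 3703 in TgL livers. Both overlapped between groups and did not pass, with 95% intervals of the log2 fold change of -0.57 to 0.15 for Slc38a4 (limma adjusted p = 0.358) and -0.35 to 0.92 for Slc38a2 (limma adjusted p = 0.470). With edgeR under library totals Slc38a4 passed at -0.52 (adjusted p = 0.0235). Slc38a2 was negative at -0.05 under that scaling and at -0.44 within the 3 mice outside the title series.

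The groups overlapped for the remaining Slc38 genes. Slc38a1, a relative of Slc38a2 that is low in liver, was at 31.0, 33.8, 34.4 and 13.0 normalized counts in TgLC livers, against 18.8, 16.9 and 41.8 in TgL livers, a log2 fold change of 0.14. That of Slc38a6 was -0.32. Slc38a7 and Slc38a9 act at the lysosome, where the first exports glutamine and the second senses arginine for the growth kinase complex mTORC1. Slc38a7 was at 221, 193, 251 and 277 normalized counts in TgLC livers, against 237, 198 and 188 in TgL livers. Slc38a9 was at 145, 157, 113 and 110.2 in TgLC livers, against 144, 128 and 136 in TgL livers. The adjusted p of these 4 genes ran from 0.381 to 0.830 by limma.

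In the Slc1 family, the 2 genes that passed moved in opposite directions. Slc1a2 encodes GLT-1, the glutamate carrier that in liver is found mainly in perivenous hepatocytes, which take up glutamate to make glutamine. It had 710.0, 850, 1036 and 647 normalized counts in TgLC livers, against 2204, 2142 and 1548 in TgL livers. The groups were well apart, with a log2 fold change of -1.28 (SE 0.19, limma adjusted p = 0.00121). Slc1a5 encodes ASCT2, an exchanger of glutamine, alanine and serine that is low in healthy liver. It had 94.0, 151, 76.9 and 111 normalized counts in TgLC livers, against 42.0, 31.9 and 23.5 in TgL livers, a 3.34-fold difference and a log2 fold change of 1.70 (SE 0.27, limma adjusted p = 0.00184).

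Slc1a4, the gene of the related exchanger ASCT1, depended on which TgL mice were counted. It had 135, 96.2, 103 and 102 normalized counts in TgLC livers, against 76.0, 54.7 and 169 in TgL livers, so TgL mouse 3 was the highest of all and the other 2 TgL mice the lowest. The log2 fold change was 0.28 (limma adjusted p = 0.562) with all mice and 0.74 (limma adjusted p = 0.0433) without TgL mouse 3. It was -0.07 without TgL mouse 2, -0.19 with edgeR under library totals and -0.72 within the 3 mice outside the title series.

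Markers of both liver zones changed beside Slc1a2 and Slc38a3, while 16.2% of all genes tested rose and 15.0% fell. Of 7 perivenous markers listed 6 were tested, of which 3 fell and none rose, and the list summed to 31350 to 42201 normalized counts in TgLC and 65369 to 99582 in TgL livers. Glul, the glutamine synthetase of these cells, was at 6302 ± 2803 (SD, n = 4) in TgLC and 7749 ± 804 (SD, n = 3) in TgL livers and did not pass (limma adjusted p = 0.352). Of 7 periportal markers tested, 3 fell (Cyp2f2, Ass1 and Gls2) and 1 rose (Sds), and the list summed to 49816 to 73397 normalized counts in TgLC and 71639 to 82932 in TgL livers. The part of zonal markers in the lower carriers was not tested.

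Carriers of the Slc6 family move osmolytes and amino acid derivatives with sodium and chloride, and 3 of the 5 tested fell. Slc6a6 encodes the taurine transporter. It had 562, 739, 635 and 636 normalized counts in TgLC livers, against 1276, 1364 and 1597 in TgL livers. Each TgLC mouse was at most 739 and each TgL mouse at least 1276, with a log2 fold change of -1.13 (SE 0.13, limma adjusted p = 3.05e-04), and the call held under each of the 14 alternative settings.

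Slc6a13 and Slc6a12 stand next to each other on chromosome 6 and encode GAT2, which carries GABA and taurine in liver, and BGT1, which carries betaine and GABA. Slc6a13 had 772, 952, 1275 and 994 normalized counts in TgLC livers, against 2239, 2176 and 2019 in TgL livers, a log2 fold change of -1.12 (SE 0.16, limma adjusted p = 0.00104). Slc6a12 had 905, 826, 778 and 910 normalized counts in TgLC livers, against 1160, 1014 and 1175 in TgL livers, a log2 fold change of -0.38 (SE 0.11). Both neighbours were lower in each TgLC mouse, the first by more. The smaller change passed (limma adjusted p = 0.0292) but was lost without TgLC mouse 2 (0.0667), TgL mouse 1 (0.114) or TgL mouse 3 (0.0921). Among the members tested there were 3 other pairs of direct neighbours, Slc38a1 with Slc38a2, Slc38a2 with Slc38a4, and Slc7a6 with Slc7a6os, and neither gene passed in any of them.

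The creatine transporter gene Slc6a8 rose. It had 144, 104, 128 and 143 normalized counts in TgLC livers, against 44.7, 69.7 and 30.6 in TgL livers, with a log2 fold change of 1.47 (SE 0.26, limma adjusted p = 0.00324). Gamt, which makes creatine and is not a carrier, stood at 330 ± 164 (SD, n = 4) normalized counts in TgLC livers and 1821 ± 118 (SD, n = 3) in TgL livers. Gatm, the other enzyme of creatine synthesis, was at 134 ± 69.3 (SD, n = 4) in TgLC livers and 135 ± 27.5 (SD, n = 3) in TgL livers and did not pass (limma adjusted p = 0.786).

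Slc6a9 encodes GlyT1, a glycine transporter. It had 198, 341, 544 and 769 normalized counts in TgLC livers, against 215, 212 and 122 in TgL livers. TgLC mouse 1 lay inside the TgL range, while mice 3 and 4, which are outside the title series, were the highest. The log2 fold change of 1.21 missed the threshold (limma adjusted p = 0.0558) but passed with DESeq2 at 1.34 (adjusted p = 0.00436), with edgeR and TMM at 1.34 (adjusted p = 0.0362) and without TgLC mouse 1 at 1.55 (limma adjusted p = 0.00789). Within the 4 mice of the title series it was 0.28 (limma adjusted p = 0.387), and within the 3 other mice, of which a single one is TgL and is assumed to vary like the rest, it was 2.39 (limma adjusted p = 0.0347).

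The Slc43 family had 2 genes that rose and 1 that did not pass. Slc43a1 encodes LAT3, which lets leucine and other branched-chain amino acids through the membrane without sodium. It had 504, 493, 458 and 432 normalized counts in TgLC livers, against 178, 154 and 132 in TgL livers. Both groups were tight, and the log2 fold change of 1.61 had a standard error of 0.14 (limma adjusted p = 5.43e-05). It passed under each of the 14 alternative settings. Slc43a2, the gene of the similar carrier LAT4, had 206, 203, 123 and 126 normalized counts in TgLC livers, against 205, 277 and 174 in TgL livers. Its log2 fold change of -0.42 did not pass (limma adjusted p = 0.216), though edgeR with library totals put it at -0.72 (adjusted p = 0.0478).

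Slc43a3 is placed in this family by sequence but encodes a carrier of purine nucleobases such as adenine. It had 1012, 1215, 489 and 901 normalized counts in TgLC livers, against 362, 405 and 280.4 in TgL livers. TgLC mouse 3 was close to the TgL mice and the others well above, with a log2 fold change of 1.31 (SE 0.28, limma adjusted p = 0.00811).

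The Slc36 family was represented by 2 genes tested. Slc36a4, which carries proline and tryptophan, had 244, 270.2, 162 and 178 normalized counts in TgLC livers, against 85.0, 110 and 115 in TgL livers. Its log2 fold change of 1.02 (SE 0.21, limma adjusted p = 0.00615) was at the 2-fold line and was 0.89 without TgL mouse 1 and 0.74 with edgeR under library totals (adjusted p = 0.0308), still called in both. Slc36a1, which exports amino acids from the lysosome, had 435, 451, 570 and 454 normalized counts in TgLC livers, against 499, 409 and 472 in TgL livers. The 95% interval of its log2 fold change ran from -0.25 to 0.35 (limma adjusted p = 0.803), and its sign depended on the scaling, since it was -0.26 with edgeR under library totals.

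**Figure D2:**
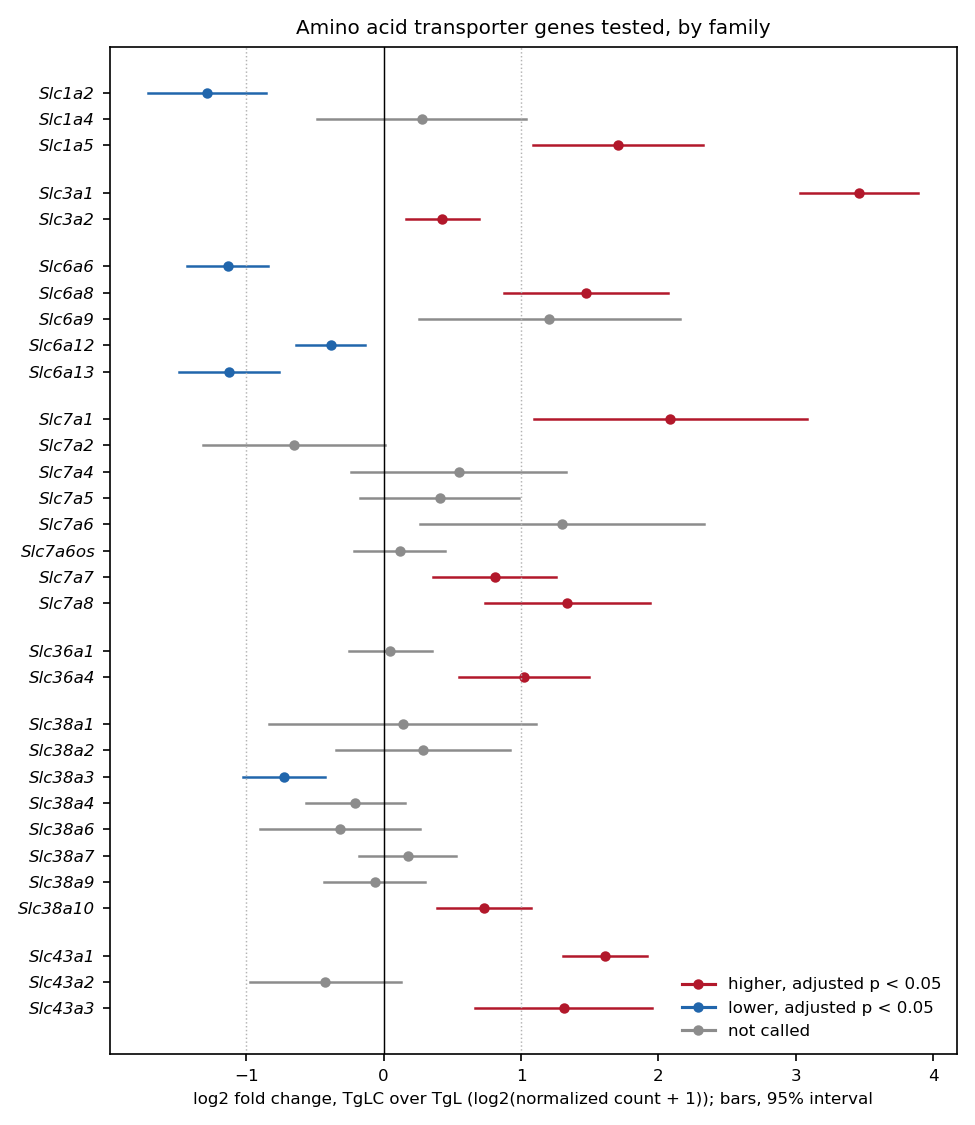
Log2 fold change of TgLC over TgL livers (horizontal axis) for the 31 members tested, grouped by family from Slc1 at the top to Slc43 at the bottom; points are limma estimates, bars are 95% intervals, and dotted lines mark 2-fold. Slc3a1 at 3.46 stands apart from the rest, and the 5 genes that fell lie between -1.28 and -0.38.

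By family, 1 of 3 Slc1 genes tested rose and 1 fell, both Slc3 genes rose, 1 of 5 Slc6 genes rose and 3 fell, and 3 of 8 Slc7 genes rose. In the Slc36, Slc38 and Slc43 families 1 of 2, 1 of 8 and 2 of 3 rose, and the only fall was that of Slc38a3. Median log2 fold changes were 0.28 for Slc1, 1.94 for Slc3, -0.38 for Slc6, 0.68 for Slc7, 0.54 for Slc36, 0.04 for Slc38 and 1.31 for Slc43. The Slc7 count and median include Slc7a6os, which is not a carrier and was at 0.12. Families of 2 or 3 genes tested rest on those genes alone, and over all genes tested 16.2% rose and 15.0% fell.

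The 18 members under the minimum had at most 14 reads in any mouse, and 16 of them had fewer than 10 reads in every mouse. They included the carriers of nervous tissue or epithelia Slc1a1, Slc1a3, Slc1a6, Slc1a7, Slc6a4, Slc6a5, Slc6a7 and Slc6a14, and also Slc6a16, Slc6a20a, Slc6a21, Slc7a3, Slc7a15, Slc38a5 and Slc38a11. Slc6a19, the neutral amino acid carrier of gut and kidney, had 0, 3, 0 and 0 reads in TgLC livers, against 1, 2 and 10 in TgL livers. Slc36a2 had 3, 14, 0 and 0 reads in TgLC livers, against 3, 6 and 2 in TgL livers. No change could be measured for these genes at this depth.

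To set genes beside each other, normalized counts were divided by exon length in the GENCODE M21 annotation, which may differ from the annotation of the counting. Per kilobase, Slc38a3 was the highest member in each TgL liver and Slc3a1 in each TgLC liver. Slc3a1 had 4002 ± 646 normalized counts per kilobase (SD, n = 4) in TgLC and 367 ± 88.9 (SD, n = 3) in TgL livers. It was first of the 49 members in each TgLC mouse and 5th, 5th and 7th in the TgL mice.

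Slc38a3 was at 2316 ± 162 (SD, n = 4) and Slc38a4 at 2373 ± 304 per kilobase (SD, n = 4) in TgLC livers, levels that overlap. In TgL livers they were at 3824 ± 271 and 2743 ± 421 per kilobase (SD, n = 3), and the ratio of Slc38a3 to Slc38a4 reads, not divided by length, was 1.05 to 1.40 in TgLC and 1.64 to 1.93 in TgL mice. Slc7a2 followed them at 555 ± 221 per kilobase (SD, n = 4) in TgLC and 835 ± 176 (SD, n = 3) in TgL livers. Slc6a13 was next in TgL livers, at 344 ± 71.7 (SD, n = 4) in TgLC and 739 ± 39.1 (SD, n = 3) in TgL livers.

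**Figure D3:**
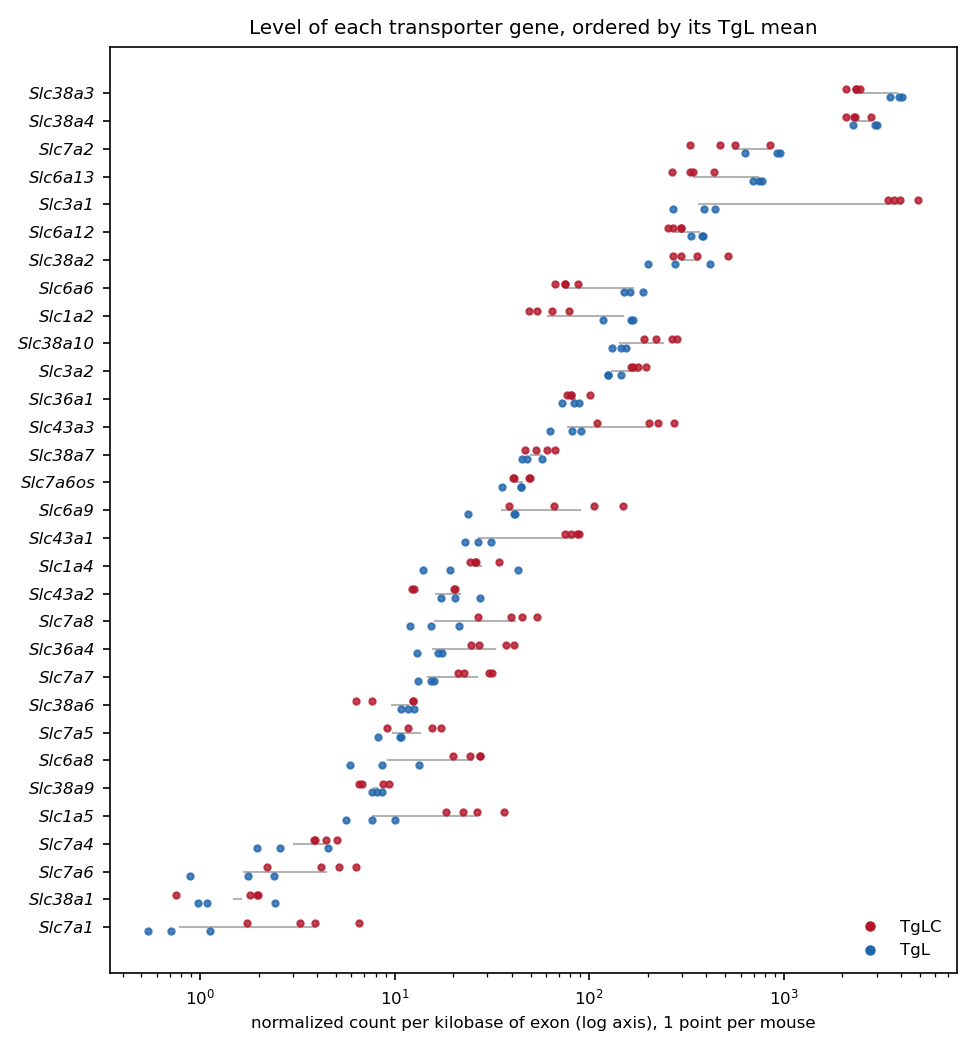
Normalized counts per kilobase of exon (horizontal log axis) of the 31 members tested, 1 point per mouse, ordered from top to bottom by the TgL mean; red points are TgLC and blue points TgL mice, and grey lines join the means. Slc3a1 sits near 367 in TgL and near 4002 in TgLC livers, above the TgLC mean of every other member.

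Over all 49 members, normalized counts summed to 49312 ± 5258 (SD, n = 4) in TgLC and 53517 ± 4540 (SD, n = 3) in TgL livers, and the groups overlapped. Slc3a1 made up 17.3% to 19.6% of that sum in TgLC livers and 1.27% to 1.83% in TgL livers. Without Slc3a1, the sum was 37387 to 45841 in TgLC and 47764 to 56098 in TgL livers, with every TgLC mouse below every TgL mouse. Slc3a1 was dropped after its rise was seen, and dropping it lowers the TgLC sums more. Slc38a3 alone averaged 12223 normalized counts in TgLC and 20181 in TgL livers. Separation in that direction was found for 19.9% of all genes tested. The 4 genes Slc38a3, Slc38a4, Slc38a2 and Slc7a2 together held 60.7% to 64.5% of the sum in TgLC and 77.9% to 79.7% in TgL livers. These sums weigh each gene by its reads and not by its length.

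The comparison was repeated within the sets of mice defined by their titles. Within the 4 mice of the number series, 2 of each genotype, the 16 calls held with their direction, and Slc1a4 and Slc7a6 passed as well, while 18.8% of all genes rose and 19.8% fell in that fit. Within the other 3 mice, where the single TgL mouse is assumed to vary like the rest, 4 of the 16 passed, beside 2.65% of all genes that rose and 1.89% that fell, namely Slc3a1 at 3.77, Slc6a6 at -1.33, Slc6a8 at 2.11 and Slc43a1 at 1.75. All 16 kept their sign there. The estimates differed most for Slc7a8, at 1.76 in the series and 0.70 outside it, and for Slc6a8, at 1.12 in the series and 2.11 outside it.

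**Figure D4:**
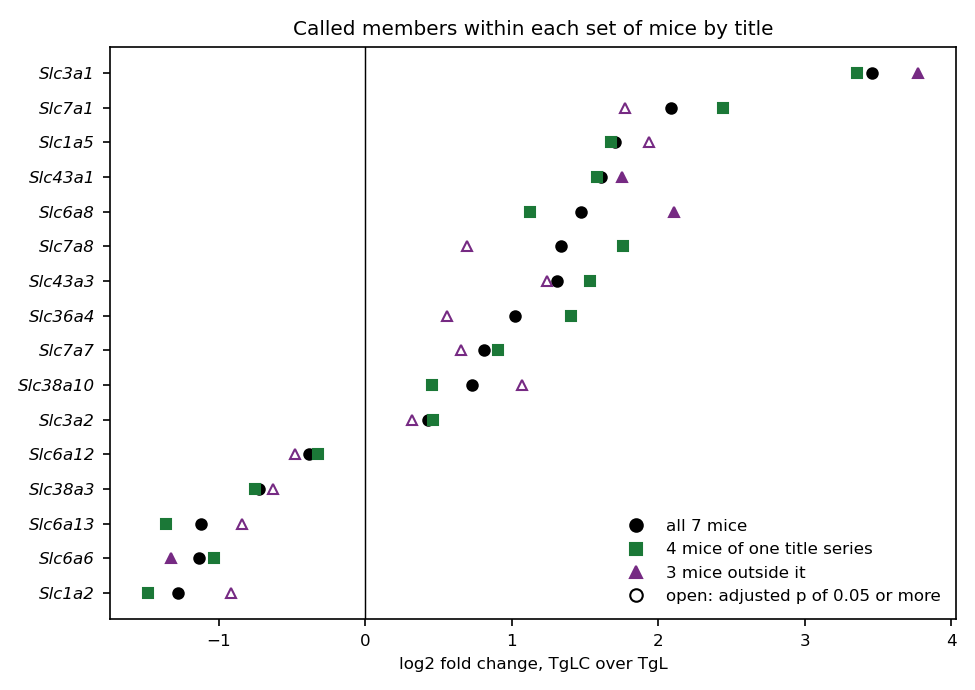
Log2 fold change of TgLC over TgL (horizontal axis) of the 16 members that passed, fitted in all 7 mice (circles), in the 4 mice of 1 title series (squares) and in the 3 mice outside it (triangles); open symbols did not pass. All symbols of a gene lie on the same side of 0, and 4 of the triangles are filled.

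The TgLC mice of the 2 title sets also differed from each other. Mice 1 and 2 were both above mice 3 and 4 for 9 of the 31 members and both below for 5, beside 26.1% and 33.1% of all genes tested. Slc7a2, Slc7a6 and Slc38a6 were among those higher in mice 1 and 2, by ratios of the means of 1.76, 1.80 and 1.79. Slc6a9 was the member most clearly lower in mice 1 and 2, at a ratio of 0.410. What these titles stand for is not given, and this difference between TgLC mice was not tested.

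Other amino acid carriers outside the 7 families were read from a list. Of 21 listed, 17 were in the table and 14 were tested, of which 1 rose and 5 fell (median log2 fold change -0.16). The shares over all genes tested were 16.2% higher and 15.0% lower. Slc25a12 and Slc25a13 encode the 2 mitochondrial aspartate and glutamate carriers, of which the second is the liver form. Slc25a12 had 375, 381, 402 and 377 normalized counts in TgLC livers, against 169.9, 171 and 158 in TgL livers, a 2.31-fold difference (limma adjusted p = 7.57e-05). Slc25a13 had 999, 823, 1137 and 914 normalized counts in TgLC livers, against 2527, 2327 and 1885 in TgL livers, a log2 fold change of -1.21 (limma adjusted p = 4.30e-04). These paralogs thus differed in opposite directions, and neither overlapped between the groups. Slc25a44, the mitochondrial carrier of branched-chain amino acids, was 2.01-fold lower in TgLC livers (limma adjusted p = 8.07e-04). Slc16a10, which lets aromatic amino acids leave the liver cell, was lower at a log2 fold change of -1.05 (limma adjusted p = 0.0120) and is named after its value was seen.

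Of 6 tested genes of partner and trafficking proteins, 2 rose and none fell (16.2% and 15.0% of all genes). They were Ace, the angiotensin-converting enzyme, at a log2 fold change of 4.61 (limma adjusted p = 3.97e-05), and Arl6ip5, which retains a glutamate carrier inside the cell, at 0.51 (limma adjusted p = 0.0370).

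Of 25 enzymes of the imported amino acids tested, 5 rose and 11 fell (median -0.29), beside 16.2% and 15.0% of all genes. Chac1, which breaks down glutathione and is a target of ATF4, rose by 2.90 on the log2 scale (limma adjusted p = 3.52e-04), and Sds, which breaks down serine, by 1.13 (limma adjusted p = 0.00664). Gamt fell by 2.57 (limma adjusted p = 2.68e-04), and Gclc, the catalytic enzyme of glutathione synthesis, by 1.48 (limma adjusted p = 2.89e-04).

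Of 20 tested genes listed as uptake regulators, of the GCN2-ATF4 or the mTORC1 branch, 5 rose and 2 fell (median 0.32). The remaining 13 did not pass, and over all genes tested 16.2% rose and 15.0% fell. The list is not limited to genes that sense amino acids. Eif2ak3 and Atf3, of the wider stress response, were among the 5 that rose. Eif2ak4, which encodes GCN2, did not pass (log2 fold change 0.14, limma adjusted p = 0.525). Atf4, the factor that induces several carriers in amino acid shortage, had 1051, 958, 999.7 and 1149 normalized counts in TgLC livers, against 691, 669.9 and 685 in TgL livers (log2 fold change 0.60, limma adjusted p = 0.00279). Rraga, a GTPase of the lysosomal mTORC1 branch, was at 0.57 (limma adjusted p = 0.00611). Sesn1, a leucine sensor, was at -0.70 (limma adjusted p = 0.00914) and Flcn, a regulator of the same GTPases, at -0.74 (limma adjusted p = 0.0254).

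Markers of other cells moved between the groups as well, where 16.2% of all genes tested rose and 15.0% fell. Of 11 exocrine pancreas markers tested all 11 fell, and the 14 in the table summed to 39.0 to 53.6 normalized counts in TgLC and 767 to 1199 in TgL livers, with 11 of them, among them Cpa1 and Pnlip, at 0 in all TgLC livers. Of 4 neutrophil markers tested 3 rose, with sums of 100.2 to 214 in TgLC and 31.9 to 99.9 in TgL livers and Mpo at 0 in all TgL livers. Erythroid markers rose for 3 of 5 tested, at 1700.1 to 9331 in TgLC and 1194 to 2170 in TgL livers. Cholangiocyte markers summed to 628 to 1890 in TgLC and 366 to 485 in TgL livers, with 1 of 4 tested higher, and stellate cell and fibroblast markers to 2821 to 8935 in TgLC and 2816 to 3490 in TgL livers, with 2 of 8 higher. None of the 8 macrophage markers passed, at 3353 to 6125 in TgLC and 4992 to 6643 in TgL livers. Of 6 endothelial markers 1 rose, at 2500 to 3867 in TgLC and 3498 to 3580 in TgL livers, and T, NK and B cell markers summed to at most 77.5 in any mouse. The part of these cells in the transporter values was not tested.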

How the data were processed

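Liver RNA of 4 TgLC and 3 TgL mice was analysed, 1 library per mouse, each a biological sample grouped by its genotype label. The submitters' processing notes name fastp, HISAT2 (2.0.5), featureCounts (1.5.0-p3) together with DESeq2 (1.20.0). No source used here gives the genome build, the annotation or the strandedness of counting. The deposited values are a normalized signal, reads per gene divided by 1 size factor per mouse by the authors, not by gene length. Whole reads came back for 100% of values within a tolerance of 1e-06. Replicate pairs differed by more than sampling noise (chi-square per degree of freedom 9.03 to 47.4). GENCODE names matched 22679 of 23594 identifiers.

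Genes with a mean of at least 10 were tested with limma 3.58.1 in R 4.3.3 on log2(value + 1), with an intensity trend, genotype as the only term and Benjamini-Hochberg adjustment over all 13145 genes. The threshold was an adjusted p of 0.05, with a log2 fold change of 1 for the 2-fold rule. Intervals are 95% limma intervals. Alternatives were DESeq2 1.42.0 and edgeR 4.0.16 on recovered reads, edgeR with library totals, a pseudocount of 5, no filter, each mouse left out, and the 2 sets of mice by title. Depth, 9367681 to 12448961 reads counted over the genes of the table, limits genes of a few reads. Promoter sequences are from RefSeq, GRCm38.p6. Without a strand setting, overlapping genes such as Slc7a6 and Slc7a6os are uncertain.

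The members and lists were chosen with earlier results of these data known. Named with values are the members at 2-fold or more, the highest of each family and those with a textbook liver role, and from each list up to 2 genes per direction with the smallest adjusted p.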

Additional observations from a re-analysis of the deposited data

Results flagged for a closer look

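Values of the 4 TgLC livers were examined for a mouse far from the other 3, in each of the 31 members tested, a check that marks about 1 group in 20 by chance. It marked 2 genes, neither of which passed between genotypes. Slc36a1, the lysosomal carrier, was at 570 normalized counts in TgLC mouse 3 and at 435 to 454 in the other TgLC mice. Slc38a1 was at 13.0 normalized counts in TgLC mouse 4 and at 31.0 to 34.4 in the others, against 16.9 to 41.8 in the TgL mice.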

How the results depend on the processing

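Of the 16 members that passed, all kept their sign under the 14 alternative settings, 4 (Slc3a1, Slc6a6, Slc6a8 and Slc43a1) passed under all of them, and 13 passed under all or all but the fit of the 3 mice outside the title series. In that fit, with a single TgL mouse, 4 members were higher and 1 lower, and the same 4 and 1 at 2-fold, with 2.65% and 1.89% of all genes called. The smaller number of mice there comes with fewer calls over all genes. With library totals in place of size factors, 9 members were higher and 8 lower, beside 8.95% and 32.5% of all genes. Of the 8 lower, 3 were new, and 2 rises, those of Slc3a2 and Slc7a7, no longer passed. The median log2 fold change of all genes was -0.30 under that scaling. Leaving out each mouse in turn gave 9 to 12 members higher and 4 to 6 lower, with 10.4% to 15.8% and 9.24% to 15.5% of all genes. DESeq2 and edgeR with TMM gave 12 higher and 5 lower each, the gain being Slc6a9, with 13.1% and 11.9% of all genes for DESeq2 and 17.1% and 14.9% for edgeR.

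Genes that did not pass changed sign in places, and the cause was not tested. With library totals the log2 fold change was -0.19 for Slc1a4, -0.20 for Slc7a6os, -0.26 for Slc36a1, -0.19 for Slc38a1, -0.050 for Slc38a2 and -0.14 for Slc38a7. In the 3 mice outside the series it was -0.72 for Slc1a4, -0.94 for Slc38a1, -0.44 for Slc38a2 and 0.031 for Slc38a4. In the 4 mice of the series it was -0.028 for Slc36a1, 0.10 for Slc38a6, -0.067 for Slc38a7 and 0.15 for Slc38a9. Leaving out each mouse gave ranges of -0.068 to 0.74 for Slc1a4, -0.038 to 0.11 for Slc36a1, -0.094 to 0.53 for Slc38a1 and -0.16 to 0.013 for Slc38a9. At this depth no difference could be read for the 18 members under the minimum.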
